A study of Mus musculus with 17 samples.

Results

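The 8 genes described here encode proteins that a developing red cell makes in bulk: 4 proteins of its membrane (Slc4a1, Rhag, Aqp1 and Tfrc) and 4 enzymes of heme synthesis (Alas2, Urod, Cpox and Fech). They were measured in sorted mouse hematopoietic stem cells (HSCs) from fetal liver and adult mice on 17 Affymetrix arrays. Members were all probe sets that the platform annotation assigned to 1 of these 8 symbols alone, which gave 21 of the 45101 probe sets in the value table: 6 for Tfrc, 4 for Fech, 3 each for Slc4a1 and Cpox, 2 for Urod and 1 each for Rhag, Aqp1 and Alas2. A probe set is a group of short probes whose combined brightness gives 1 intensity per array, and 3 of the Tfrc sets were the array's own transferrin receptor control sets for the 3′ end, the middle and the 5′ end of the transcript. All 21 were above the deposited floor of 16 on at least 1 array and were tested.

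The gate for adult HSCs kept cells with CD150, c-Kit and Sca-1 and without CD48 or lineage markers. In fetal liver, taken at E15.5, low Mac-1 was also required. There were 3 fetal liver arrays, 3 control and 3 C/EBPa KO arrays from 7 days after pIpC, and 4 control and 4 C/EBPa KO arrays from 21 days after it. pIpC is a synthetic double-stranded RNA that induces interferon and is commonly used to switch on an inducible Cre. All adult groups, controls included, had received it. The title of the series asks how the transcription factor C/EBPa bears on adult HSC quiescence. The genotype label of controls is wild type. For the arrays titled C/EBPa KO, the genotype label and the design text instead name Pu.1 knock-in (PU.1ki/ki), and the groups here follow the titles. Fetal liver carries no genotype or pIpC label. The sources used here do not give strain, adult age, any Cre or any pooling of animals, nor whether replicates came from separate animals, and the p-values therefore reflect only how far these arrays spread.

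Cebpa, the gene for C/EBPa, lay between 115 and 532 on the 7 adult control arrays and between 20.7 and 39.8 on the 7 arrays titled KO, without overlap, whereas Spi1, the gene for PU.1, lay between 126 and 623 and between 231 and 460. Of the genes of the sort gate, Kit lay between 442 and 905 over all 17 arrays and Slamf1, the gene for CD150, between 37.8 and 1049. Hlf and Mecom, transcription factor genes of HSCs, lay at 1250 to 1596 and 807 to 945 in KO at day 7 against 2516 to 2935 and 994 to 1941 in control, without overlap, as did 6.23% of all probe sets with KO lower. Neither passed limma's test (adjusted p = 0.577 and 0.822). Of the 7 measured genes of HSCs and the sort gate, 4 were higher and 3 lower in KO at day 7, with a median log2 difference of 0.05. Cd48, the gene for the protein that the gate excludes, lay between 16 and 18.8 in control and 60.9 and 283 in KO at day 7, between 18.6 and 658 in control and 90.3 and 308 in KO at day 21, and between 99.5 and 210 in fetal liver. It was 1 of 8 listed genes of progenitors outside the gate. At day 7, 2 of these separated with KO higher, and 2, Mpo and Elane, with KO lower. The shares over all probe sets were 6.73% and 6.23%. Hbb-b2, an adult beta globin chain, lay between 115 and 6442 over all 17 arrays.

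In a maturing erythroid cell, iron is taken up through the transferrin receptor and heme is assembled from glycine and succinyl-CoA in a chain of enzymes that starts in the mitochondrion, passes through the cytosol and ends in the mitochondrion again. Alas2 encodes the erythroid enzyme of the first and rate-limiting step, Urod the last cytosolic step, Cpox the step on return to the mitochondrion, and Fech ferrochelatase, which inserts iron into protoporphyrin. At the membrane, Slc4a1 encodes band 3, the anion exchanger that also anchors the cytoskeleton, Rhag the glycoprotein around which the Rh complex forms, and Aqp1 a water channel that endothelial cells also carry. Tfrc encodes the transferrin receptor, which dividing cells of many kinds use.

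Many erythroid genes carry sites for the transcription factors GATA1, for which the letters GATAA were searched, and KLF1, for which CACCC was searched. The 250 bases upstream of the annotated start were searched on both strands for these letters and for the PU.1-type motif GAGGAAG and the C/EBP-type motif TTGCNNAA, in the RefSeq promoter table of build GRCm38.p6. Of the 32817 promoters in that table, 22.6% held GATAA, 52.0% CACCC, 10.6% GAGGAAG and 9.57% TTGCNNAA. Promoters are shown for 4 of the genes whose values the results turn on: Rhag (chr17:40810899-40811148, plus strand) and Cpox (chr16:58669958-58670207, plus strand), which were called in fetal liver, Aqp1 (chr6:55336049-55336298, plus strand), which had the largest difference between KO and control, and Alas2 (chrX:150547167-150547416, plus strand), which was high on 1 KO array of day 7. They are written 5′ to 3′, ending at the base before the start, with capitals for each match to these motifs or their reverse complements (TTATC is that of GATAA and GGGTG that of CACCC).
Rhag: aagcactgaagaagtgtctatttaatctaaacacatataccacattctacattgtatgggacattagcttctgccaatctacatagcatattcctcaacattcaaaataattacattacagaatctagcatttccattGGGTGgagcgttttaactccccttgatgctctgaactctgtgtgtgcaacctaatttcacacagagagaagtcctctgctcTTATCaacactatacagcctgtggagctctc
Cpox: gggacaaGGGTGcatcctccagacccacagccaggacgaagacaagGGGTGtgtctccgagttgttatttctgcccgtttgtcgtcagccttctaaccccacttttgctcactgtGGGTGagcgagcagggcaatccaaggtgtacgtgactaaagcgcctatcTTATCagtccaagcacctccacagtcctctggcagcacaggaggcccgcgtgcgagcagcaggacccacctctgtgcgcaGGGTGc
Aqp1: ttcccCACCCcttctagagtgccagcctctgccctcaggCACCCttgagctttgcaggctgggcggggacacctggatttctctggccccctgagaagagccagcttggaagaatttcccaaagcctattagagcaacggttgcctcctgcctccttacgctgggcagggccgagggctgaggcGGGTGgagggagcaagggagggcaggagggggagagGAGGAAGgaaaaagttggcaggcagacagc
Alas2: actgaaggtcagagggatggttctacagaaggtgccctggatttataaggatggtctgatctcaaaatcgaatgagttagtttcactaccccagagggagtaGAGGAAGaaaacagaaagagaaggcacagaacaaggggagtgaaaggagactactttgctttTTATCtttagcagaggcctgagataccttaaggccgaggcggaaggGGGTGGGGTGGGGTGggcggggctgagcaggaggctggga

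GATAA occurred once, on the opposite strand, in the promoters of Rhag (bases −31 to −27), Cpox (−86 to −82) and Alas2 (−86 to −82), and in none of Aqp1, Urod or either Tfrc start. CACCC occurred 1 time in Rhag, 3 times in Aqp1, 4 times in Cpox, 2 and 3 times at the Tfrc starts, 0 times in Urod and 3 times in Alas2, where the matches lay side by side. Slc4a1 and Fech were not searched. GAGGAAG occurred once each in Aqp1 (−30 to −24) and Alas2 (−148 to −142). TTGCNNAA occurred in no member promoter searched, which says only that these letters are not in this window. A match is a description of the letters and was not tested for binding.

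The comparison of fetal liver with adult control HSCs bears on how adult quiescence is acquired, which the title of the series names. Slc4a1, Rhag, Cpox, Fech and Tfrc were higher in fetal liver, and 12 of the 21 probe sets passed limma's test at an adjusted p under 0.05, all of them higher. Over all 40036 probe sets tested, 3.07% passed in either direction, 1.47% higher and 1.61% lower. Groups did not overlap, with fetal liver higher, for 16 of the 21, against 2.8% of all probe sets. With 1 probe set per gene, 5 of the 8 genes passed and 7 did not overlap. The median log2 difference was 2.09 over the 21 and 0.00 over all probe sets. Stage, tissue, the Mac-1 gate and pIpC cannot be told apart in this comparison, and in bulk RNA a change in the share of a cell type cannot be told apart from a change in RNA per cell.

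**Figure D1:**
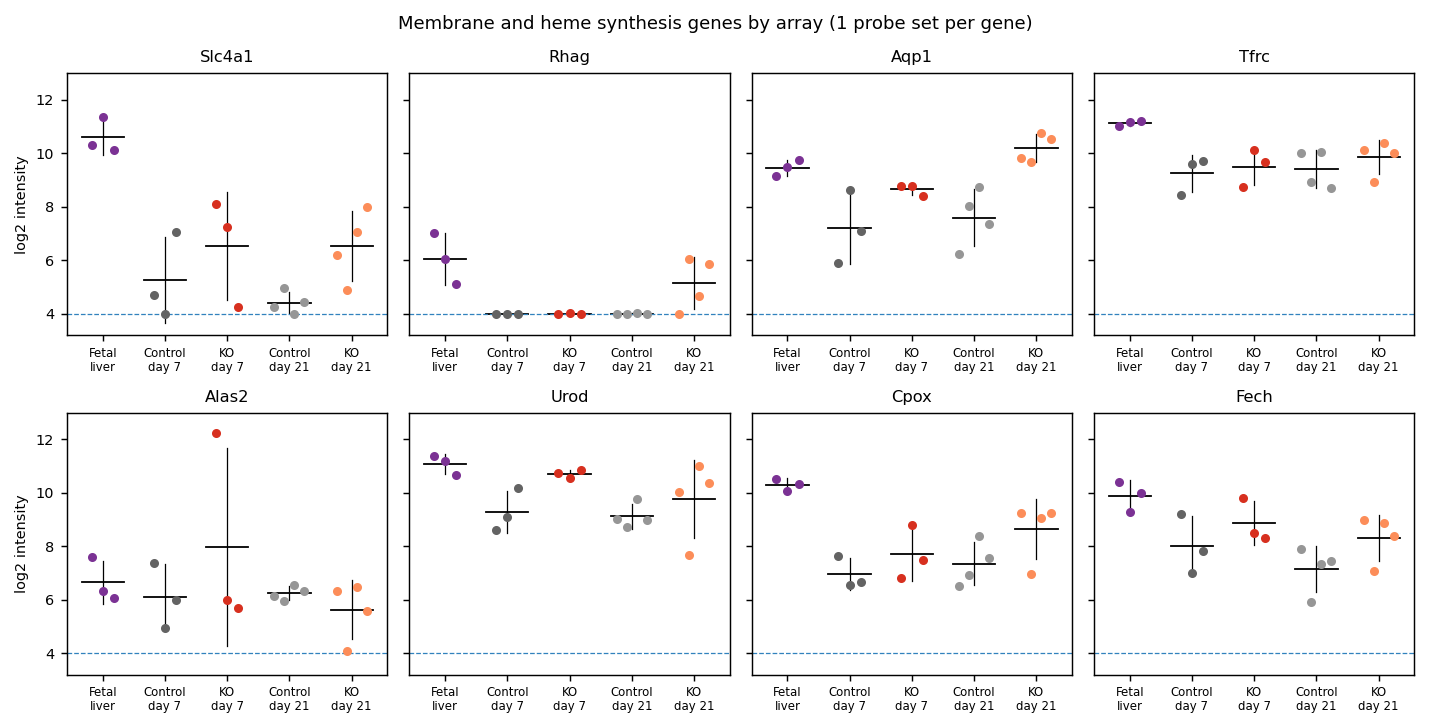
Log2 intensity of the 8 genes on each of the 17 arrays, 1 probe set per gene (the one with the highest mean), with a point per array, a bar at the group mean, a whisker of 1 SD and a dashed line at the floor of 4. The fetal liver points of Slc4a1, Tfrc and Cpox lie above every adult point, Aqp1 is highest in KO at day 21, and 1 KO array at day 7 stands far above the rest for Alas2.

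Slc4a1 (probe set 1416464_at) had intensities of 1283, 2604 and 1126 on the fetal liver arrays, 25.8, 16 and 134 in control at day 7 and 19.2, 31.0, 16 and 21.8 in control at day 21. Every fetal array exceeded every adult control array, and 2 of the 7 control arrays were at the floor. The log2 difference was 5.77 (SE 0.84, adjusted p = 0.0017), or at least 54.5-fold, a lower bound because of the control arrays at the floor. The other Slc4a1 sets were also called, 1434502_x_at at 3.86 (SE 0.78, adjusted p = 0.0156) and 1431743_a_at at 2.22 (SE 0.24, adjusted p = 0.00012).

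Rhag had 132, 66.8 and 34.3 in fetal liver. It was at the floor of 16 on 6 of the 7 adult control arrays and at 16.4 on the remaining one. The log2 difference of 2.06 (SE 0.42, adjusted p = 0.0165) is therefore a lower bound, at least 4.18-fold, and the fetal arrays themselves spanned 34.3 to 132. Without fetal replicate 1 the adjusted p was 0.075 and without fetal replicate 2 it was 0.0609.

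Aqp1 had 568, 714 and 866 in fetal liver against 60.0, 400 and 137 in control at day 7 and 74.8, 261, 434 and 165 in control at day 21. All fetal arrays exceeded all control arrays, but the controls spread widely. The difference of 2.06 (SE 0.55, 95% confidence interval 0.87 to 3.24) missed the threshold with an adjusted p of 0.064. It passed without control replicate 2 of day 7 (adjusted p = 0.0204) and without control replicate 3 of day 21 (adjusted p = 0.0348), the brightest Aqp1 control arrays of either day.

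Tfrc (1422967_a_at) had 2080, 2291 and 2384 in fetal liver, 350, 777 and 844 in control at day 7 and 1033, 488, 1071 and 423 in control at day 21. The fetal values were close together and each was above every adult control value. The log2 difference was 1.79 (SE 0.41, adjusted p = 0.0339), and 5 of the 6 Tfrc sets were called, with differences of 1.52 to 2.38. The middle control set, whose groups did not overlap either, had 1.65 (adjusted p = 0.0724). For 1422967_a_at the call was lost without any single fetal array (adjusted p up to 0.109), without control replicate 1 of day 7 (0.0597) and without control replicate 2 of day 21 (0.0547).

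**Figure D2:**
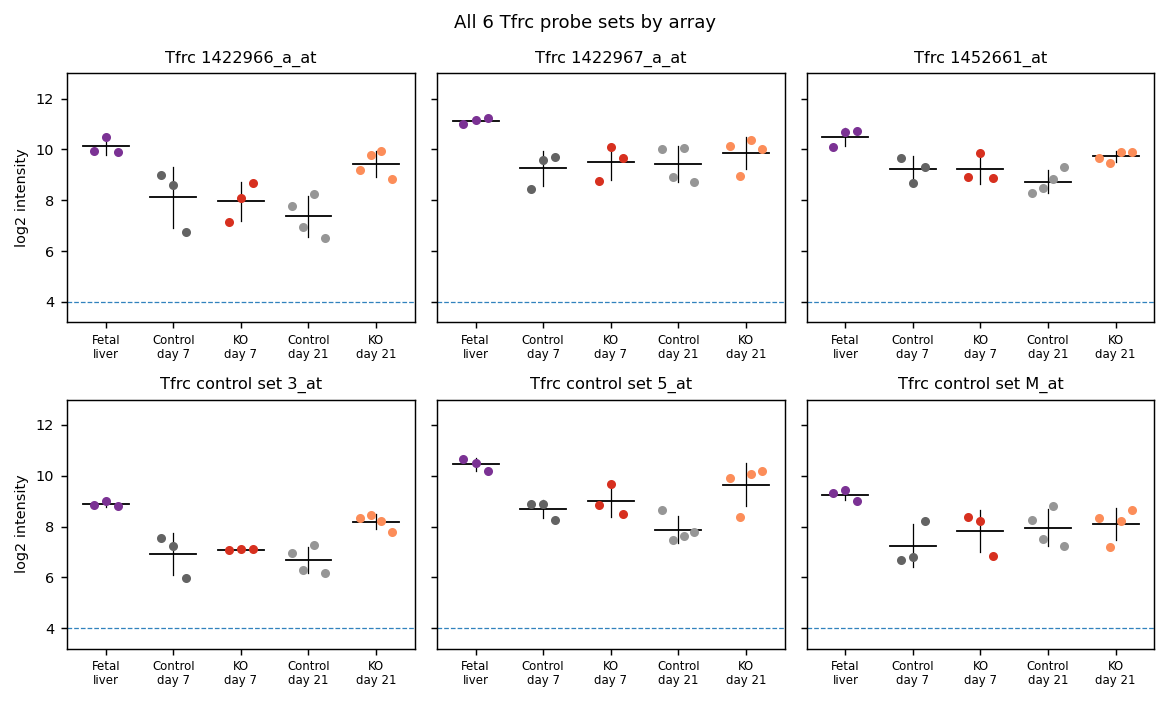
Log2 intensity of all 6 Tfrc probe sets on each of the 17 arrays, drawn as in the plot of the 8 genes, with 3_at, 5_at and M_at as the array's control sets for the 3′ end, the 5′ end and the middle. Fetal liver lies above both control groups in all 6, whereas KO at day 21 lies apart from its controls in 1422966_a_at, 1452661_at and the 3′ set and overlaps them in the other 3.

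The heme enzymes did not move alike. Alas2 had 191, 79.3 and 67.2 in fetal liver, 168, 30.8 and 63.9 in control at day 7 and 70.7, 61.8, 94.3 and 79.1 in control at day 21. These groups overlapped, and the difference was 0.48 (SE 1.13, 95% confidence interval −1.95 to 2.90, adjusted p = 0.904), an interval wide enough for a large difference either way. It was the only one of the 8 genes whose representing probe set did not separate fetal liver from adult control.

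Urod (1443849_x_at) had 2683, 2317 and 1623 in fetal liver, 394, 545 and 1143 in control at day 7 and 520, 417, 880 and 502 in control at day 21. The groups did not overlap, but the difference of 1.87 (SE 0.56) had an adjusted p of 0.094. Its other set, 1417206_at, had a smaller difference of 0.81 (SE 0.38, adjusted p = 0.324) with overlapping groups.

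Cpox (1422492_at) had 1477, 1071 and 1272 in fetal liver, 198, 94.5 and 103 in control at day 7 and 92.1, 123, 334 and 189 in control at day 21. The lowest fetal array was above 3 times the brightest control array, and the difference was 3.15 (SE 0.56, adjusted p = 0.00713), or 8.86-fold. The set 1422493_at had the same sign at 2.94 (SE 0.58, adjusted p = 0.0137). The set 1440747_at was at the floor on all arrays but 1, where it had 16.3, and gave no level of Cpox.

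Fech (1418699_s_at) had 1373, 622 and 1013 in fetal liver, 597, 129 and 227 in control at day 7 and 240, 60.2, 161 and 176 in control at day 21. The lowest fetal and the highest control arrays were nearly level at 622 and 597. The difference of 2.31 (SE 0.57, adjusted p = 0.0457) was just past the threshold and fell short of it without any 1 of the fetal arrays (adjusted p up to 0.153) and in most other alternatives. Of the other sets, 1418698_a_at had 2.67 (adjusted p = 0.0534) and 1449181_at 2.13 (adjusted p = 0.215). The set 1427696_at went the other way: it was at the floor on all 3 fetal arrays and lay between 16 and 440 on the control arrays, with a difference of −1.76 (SE 0.79, adjusted p = 0.297).

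The count of 12 called probe sets rested on the small fetal group. It was 7 without fetal replicate 1, 5 without fetal replicate 2 and 8 without fetal replicate 3. Slc4a1 and Cpox were called under all 23 alternatives.

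**Figure D3:**
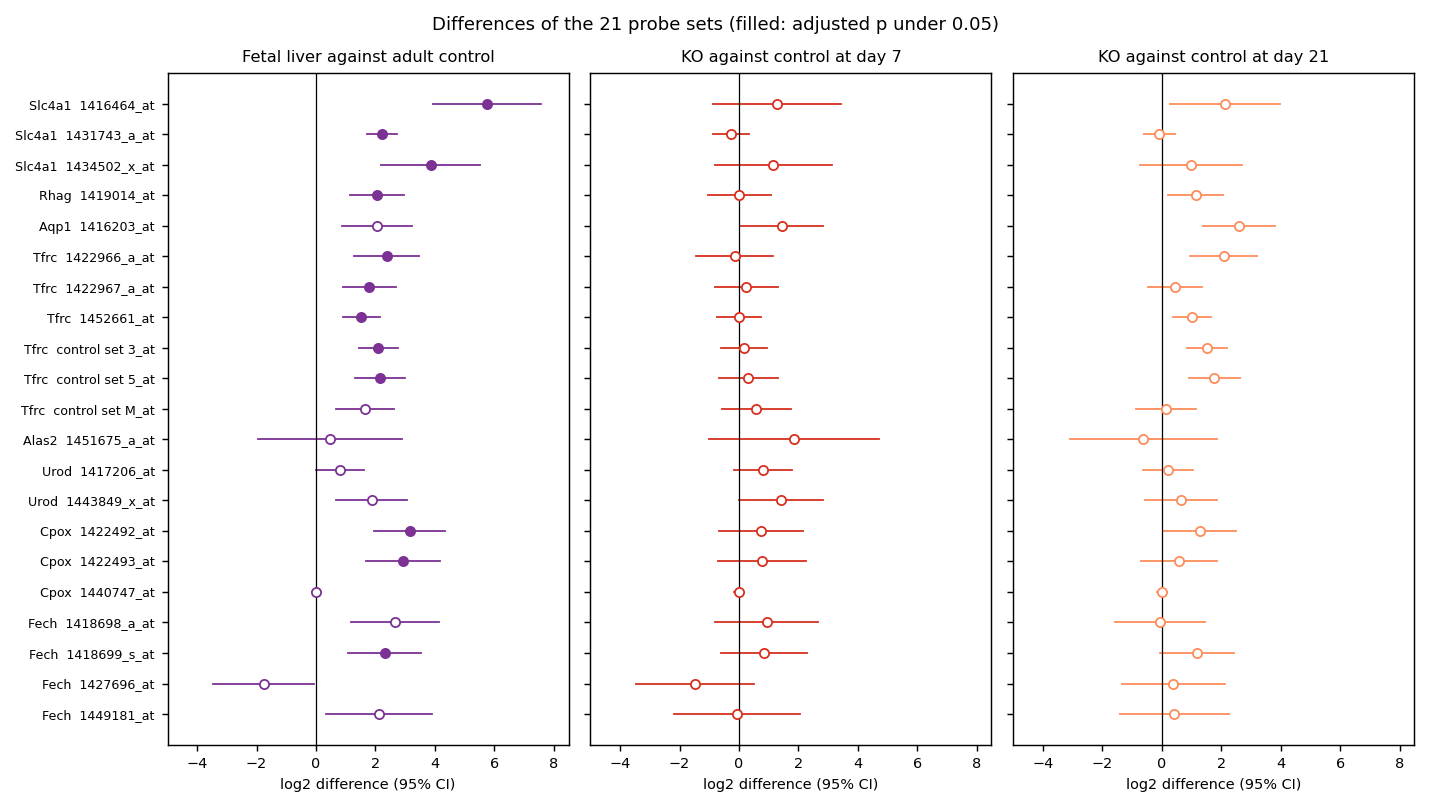
Log2 differences of the 21 probe sets in 3 comparisons, as points with 95% confidence intervals from limma and a vertical line at no difference. Filled points passed an adjusted p of 0.05: 12 of 21 in fetal liver against adult control and none in KO against control at either day, where Aqp1 at day 21 had the largest difference at 2.61.

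Genes around the 8 were described by lists chosen for the pathway. By sign, 48.2% of all probe sets were higher in fetal liver. Among the other heme enzymes, 3 of 4 were higher in fetal liver and 1 was called: Alad, the second enzyme of the pathway, rose by 3.22 (SE 0.63, adjusted p = 0.0127). Its intensity was between 1201 and 1459 in fetal liver and between 56.5 and 356 on adult control arrays. Alas1, the housekeeping counterpart of Alas2, had −0.83 (adjusted p = 0.511). Of 17 genes of heme and iron transport, heme export and heme breakdown, 14 were higher and 6 were called, with a median of 0.97. Hmox1, which degrades heme, rose by 3.86 (SE 0.54), Abcb6, a porphyrin transporter, by 2.18 (SE 0.41), Glrx5, which serves iron-sulfur cluster assembly, by 1.55 (SE 0.30) and Hebp1, a heme-binding protein, by 2.83 (SE 0.56). Hmox1 is also a gene of tissue macrophages.

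Of 14 genes of iron uptake, storage and sensing, 11 were higher and 1 was called, with a median of 0.40. This was Ireb2, an iron-sensing RNA-binding protein that stabilizes Tfrc mRNA, at 2.23 (SE 0.50, adjusted p = 0.0292). Slc40a1, the iron exporter, had 2.70 (adjusted p = 0.0633). Tfr2, the second transferrin receptor, had −1.44 (adjusted p = 0.0506), opposite in sign to Tfrc.

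Of 26 other red cell membrane genes, 22 were higher and 5 were called, with a median of 0.86. Kel, the Kell blood group protein, rose by at least 4.41 (SE 0.65), a lower bound since 4 of the 7 control arrays were at the floor, Rhd, the partner of Rhag in the Rh complex, by 2.60 (SE 0.44), Epb42, which links band 3 to the cytoskeleton, by 1.35 (SE 0.27), and Ank1, the ankyrin that binds band 3, by 4.20 (SE 0.94). Of 15 erythroid regulators 7 were higher, with a median of −0.12. Klf1 was called higher at 4.11 (SE 0.72, adjusted p = 0.00675). Gata2, a stem and progenitor cell factor that gives way to Gata1 as red cells form, fell by 1.59 on the log2 scale (adjusted p = 0.00031), and Lmo2, a partner of both, fell by 0.74 (adjusted p = 0.0254). Of 6 globin genes measured by sets of their own, 5 were higher and Hba-a1 was called at 0.65 (SE 0.15, adjusted p = 0.0406). Its set was dim, with 41.0 to 42.1 in fetal liver and 21.0 to 33.1 on adult control arrays. Hba-x, Hbb-bh1 and Hbb-y were dim too, between 16.5 and 73.6 over all 17 arrays, and Hbb-b1, Hbb-bs and Hbb-bt were not measured.

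**Figure D4:**
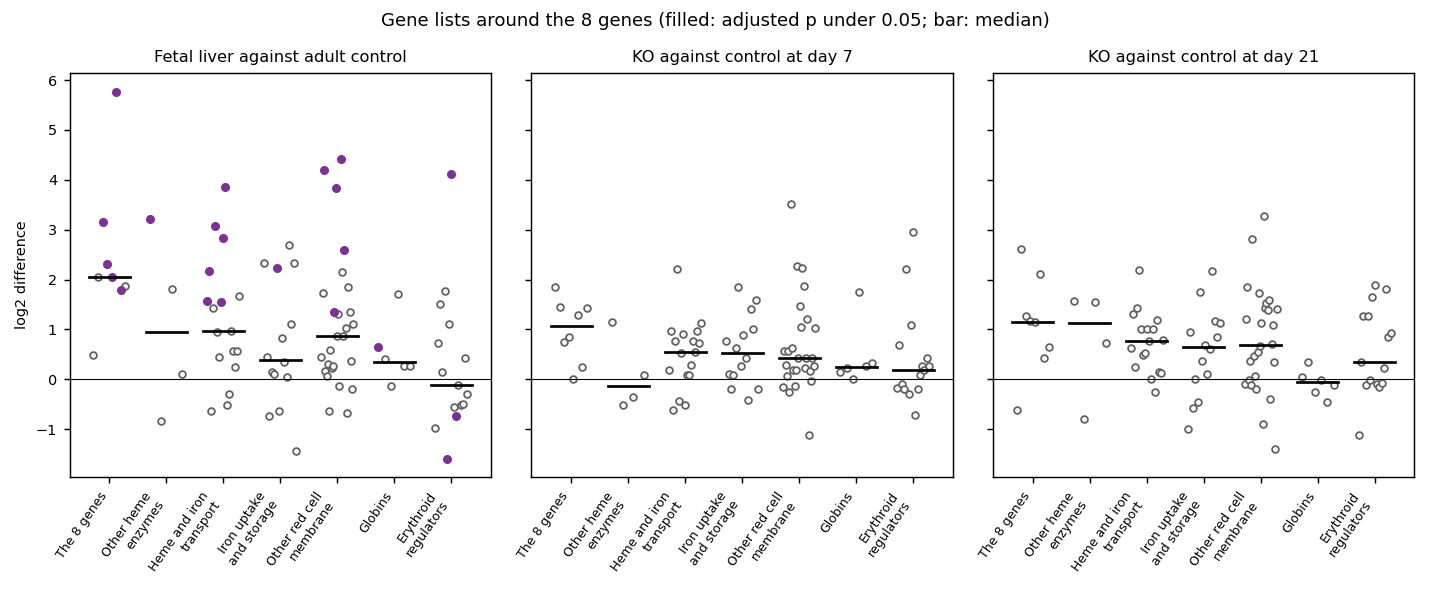
Log2 differences of the 8 genes and of the 6 lists around them, 1 probe set per gene, in 3 comparisons, with a bar at each median and filled points for an adjusted p under 0.05. Filled points appear only in fetal liver against adult control, and the median of the 8 genes there is 2.06.

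Genes of other cell types differed in the same comparison. Of 8 endothelial genes, all were higher in fetal liver and 5 were called, and their summed intensity was 2242, 8295 and 11760 on the fetal arrays against 325 to 802 on the adult controls. Of 9 hepatocyte genes all were higher and 3 were called, with sums of 862, 11721 and 7754 against 442 to 1200. Of 9 macrophage genes 8 were higher and 1 was called, with sums of 4170, 2060 and 2015 against 238 to 542. Cd163, a macrophage gene, was at the floor on all 3 fetal arrays, and Lyve1, an endothelial and macrophage gene, reached 485 to 3866 in fetal liver against 31.9 to 42.6 in controls. Fetal replicate 1 had 1283 for Slc4a1 and 1477 for Cpox, the lowest hepatocyte and endothelial sums of the 3 fetal arrays (862 and 2242) and the highest macrophage sum (4170). Of 20 cell cycle genes all were higher and 6 were called, with a median of 1.49. The part of other cells and of cycling in the differences of the 8 genes was not tested.

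**Figure D5:**
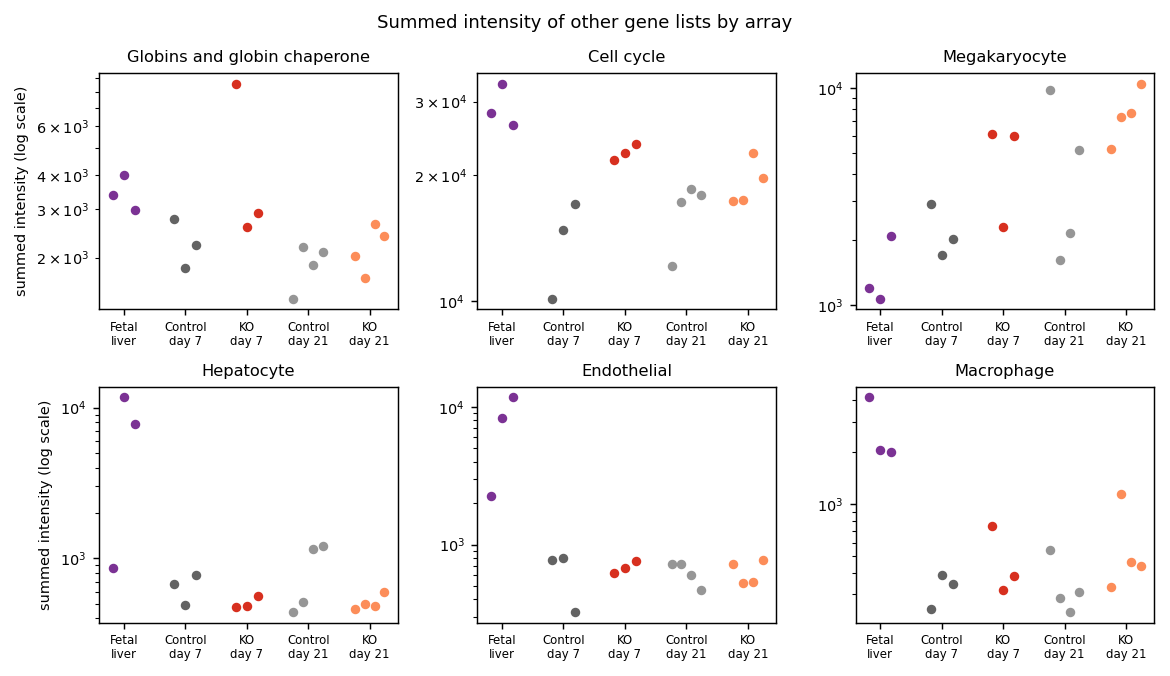
Summed intensity of 6 gene lists on each of the 17 arrays, on log axes. Endothelial and macrophage sums of the 3 fetal arrays lie above all adult arrays, and the hepatocyte sum of fetal replicate 1 lies among the adult arrays. The globin sum is highest on KO replicate 1 of day 7, where Hbb-b2 makes up most of it.

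At day 7 after pIpC the 7 genes other than Rhag, which was at or next to the floor, had a higher mean in KO than in control on their representing probe set, but none passed the test. Under limma 0 of the 21 probe sets passed, against 0.0025% of all probe sets. At an unadjusted p under 0.05, 2 were higher and 0 lower, against 3.56% of all probe sets higher and 3.13% lower. By sign 15 of 21 were higher, 5 were lower and 1 was at the floor on all 6 arrays, where 48.5% of all were higher, and the median was 0.58 against 0.00. Groups did not overlap, with KO higher, for 2 of the 21, both of Urod and thus 1 of the 8 genes. That share is not far from the 6.73% of all probe sets.

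Urod (1443849_x_at) had 1708, 1491 and 1847 in KO at day 7 against 394, 545 and 1143 in control. The KO arrays were close together and all above the controls. The difference was 1.42 (SE 0.66, limma's unadjusted p = 0.0493, adjusted p = 0.744), and 0.80 (SE 0.45, adjusted p = 0.824) on 1417206_at. Aqp1 had 441, 436 and 340 in KO, within the 60.0 to 400 of the controls only on the lowest array, and a difference of 1.44 (SE 0.65, limma's unadjusted p = 0.0449, adjusted p = 0.736).

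Alas2 had 4799, 63.8 and 51.6 in KO at day 7. Only replicate 1 stood apart, and the other 2 KO arrays lay within the range of the controls. The difference of 1.86 (SE 1.33, adjusted p = 0.879) became −0.27 without that array. The same array had the highest Hbb-b2 value of its group, 6442 against 776 and 855. Its summed globin intensity was 8549, most of it Hbb-b2, against 2590 and 2911 on the other KO arrays of that day. Hba-a2, another globin gene, lay between 1689 and 1959 on the 3 KO arrays. Replicate 1 was also the brightest of its group for Slc4a1 (276) and Fech (896), but not for Cpox (112) or Tfrc (427).

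Rhag had nothing to compare at day 7, with 16, 16.4 and 16 in KO and the floor in every control. Slc4a1 had 276, 152 and 19.2 in KO, overlapping the controls, and a difference of 1.29 (95% confidence interval −0.86 to 3.43). Tfrc had 427, 1108 and 819, with 0.25 (95% confidence interval −0.80 to 1.30), Cpox had 112, 447 and 178, with 0.74 (−0.68 to 2.16), and Fech had 896, 357 and 313, with 0.84 (−0.61 to 2.29).

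None of the lists around the 8 genes held a called gene at day 7. Of the 4 other heme enzymes 2 were higher and 2 lower (median −0.14), of 17 transport and breakdown genes 14 were higher (median 0.55), of 14 iron genes 11 (median 0.53), of 26 other membrane genes 21 (median 0.42), and of 15 regulators 9 (median 0.18). All 6 globin genes were higher (median 0.25), of which Hba-a1, Hba-x, Hbb-bh1 and Hbb-y were dim. Klf1 had 2.96 (SE 0.85, adjusted p = 0.498), Gata1 2.21 (SE 0.82, adjusted p = 0.642) and Kel, at the floor on all 3 control arrays, at least 2.23 (SE 0.77, adjusted p = 0.600). Slc2a1, a glucose transporter, had −1.12 (SE 0.33, adjusted p = 0.501). Of 20 cell cycle genes 19 were higher (median 1.35), with summed intensities of 21744 to 23744 in KO and 10137 to 17030 in control, and their part in the values of the 8 genes was not tested.

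At day 21 Aqp1 and part of the Tfrc probe sets were higher on every KO array than on every control array, but none passed the adjustment over all probe sets. Under limma 0 of 21 were called, against 0.03% of all probe sets in either direction. At an unadjusted p under 0.05, 8 of 21 were higher and 0 lower, where 5.85% of all probe sets were higher and 3.5% lower. Groups did not overlap, with KO higher, for 4 of 21, against 3.13% of all probe sets. Tfrc, with 6 sets, entered these counts more than once. With 1 probe set per gene, 4 of the 8 genes were higher at an unadjusted p under 0.05 by limma, and 1 did not overlap. The median difference was 0.65, and 0.01 over all probe sets.

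Aqp1 had 917, 817, 1751 and 1480 in KO at day 21 against 74.8, 261, 434 and 165 in control. All KO arrays were above all controls, and the lowest KO array was also above 2 of the 3 fetal arrays. The difference was 2.61 (SE 0.56, 95% confidence interval 1.40 to 3.82, limma's unadjusted p = 0.00043, adjusted p = 0.156), or 6.10-fold. Leaving out single arrays kept it between 2.15 and 3.0.

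Tfrc gave different answers by probe set. The set 1422966_a_at had 591, 881, 977 and 454 in KO against 216, 122, 306 and 90.3 in control, without overlap, and a difference of 2.08 (SE 0.52, adjusted p = 0.227). The 3′ control set had 326, 351, 295 and 219 against 125, 79.5, 153 and 72.2, again without overlap, and 1.52 (SE 0.31, adjusted p = 0.126). The set 1452661_at had 1.00 (SE 0.29, adjusted p = 0.295) without overlap, and the 5′ control set 1.76 (SE 0.40, adjusted p = 0.173) with overlap. In contrast, 1422967_a_at, the brightest, had 1114, 496, 1337 and 1033 against 1033, 488, 1071 and 423, with a difference of 0.43 (95% confidence interval −0.48 to 1.35), and the middle control set had 0.14 (95% confidence interval −0.86 to 1.14). The probe sets of Tfrc thus spanned 0.14 to 2.08 in this comparison. In fetal liver they spanned 1.52 to 2.38, but against the mean of both control groups, so the references of these spans differ. From control at day 7 to control at day 21, 1422967_a_at changed by 0.17 and the middle control set by 0.72. The other Tfrc sets changed by −0.81 to −0.25, and none of these changes was called. Both comparisons use the control arrays of day 21.

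Slc4a1 had 73.0, 30.1, 134 and 254 in KO at day 21 against 19.2, 31.0, 16 and 21.8 in control. KO replicate 2 lay within the control range and the other 3 KO arrays above it, and the difference was 2.12 (SE 0.86, adjusted p = 0.465). Rhag had 16, 66.4, 25.2 and 58.6 in KO, above the floor on 3 of 4 arrays, with a difference of 1.14 (SE 0.43, adjusted p = 0.420) from controls at or near the floor.

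Cpox had 610, 124, 533 and 607 in KO at day 21 against 92.1, 123, 334 and 189. Here too KO replicate 2 was among the controls and the other 3 above them, and the difference was 1.27 (SE 0.57, adjusted p = 0.516). Urod had 1046, 203, 2037 and 1327 against 520, 417, 880 and 502, with 0.65 (SE 0.57), and Fech 502, 136, 461 and 335 against 240, 60.2, 161 and 176, with 1.17 (SE 0.58). Alas2 did not share the sign, with 79.7, 16.8, 89.6 and 48.2 in KO and a difference of −0.62 (SE 1.15, 95% confidence interval −3.10 to 1.85). KO replicate 2 was the lowest of its group for Slc4a1, Aqp1, Tfrc, Alas2, Urod, Cpox and Fech on their representing probe sets but the highest for Rhag. Without it the difference was 1.35 for Urod (adjusted p = 0.281) and 0.83 for Rhag (adjusted p = 0.605). Its summed macrophage intensity was 1151, against 330 to 464 on the other KO arrays of that day, and the part of this in its values was not tested.

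No list around the 8 genes held a called gene at day 21, when 50.8% of all probe sets were higher by sign. Of the 4 other heme enzymes 3 were higher (median 1.13), of 17 transport and breakdown genes 15 were higher (median 0.76), of 14 iron genes 11 (median 0.65), of 26 other membrane genes 19 (median 0.69), and of 15 regulators 9 (median 0.35), while the 6 globin genes had a median of −0.07. Slc25a38, which carries glycine into mitochondria for heme synthesis, had 1.19 (SE 0.29, adjusted p = 0.209), Ireb2 1.74 (SE 0.51, adjusted p = 0.297), Kel at least 3.28 (SE 0.67, adjusted p = 0.123, 1 control array at the floor) and Gfi1b, a repressor needed for red cells and megakaryocytes, 1.65 (SE 0.32, adjusted p = 0.118). On the other side, Bach1, a repressor that heme inactivates, had −1.11 (SE 0.29, adjusted p = 0.255). Tmod3, an actin-capping protein, had −1.40 (SE 0.33, adjusted p = 0.202). Of 12 megakaryocyte genes 10 were higher (median 1.08), and 5 did not overlap with KO higher, against 3.13% of all probe sets. Their sums were 5252 to 10408 in KO and 1616 to 9813 in control, and Gp9 alone had 7224 on the control array with 9813. Their mean log2 intensity was 7.71 to 8.5 in KO and 6.5 to 7.34 in control, without overlap. Of 20 cell cycle genes 16 were higher (median 0.43). The part of the megakaryocyte and cell cycle genes in the values of the 8 genes was not tested.

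Averaged over both days, 19 of 21 probe sets were higher in KO, as were 51% of all probe sets, and limma called 0, against 0.0275% of all. At an unadjusted p under 0.05, 9 were higher and 0 lower, where 6.38% of all probe sets were higher and 4.31% lower. With 1 probe set per gene, 5 of the 8 genes were higher at that threshold and 0 lower. Aqp1 had the smallest p, with a difference of 2.02 (SE 0.43, adjusted p = 0.121). The KO effects of day 21 and day 7 were also set against each other. Under limma 0 of 21 differed, against 0.0025% of all probe sets, and 4, all of Tfrc, had an unadjusted p under 0.05 with the larger effect at day 21, against 2.79% of all probe sets. For Tfrc 1422966_a_at this difference of effects was 2.23 (SE 0.79, limma's unadjusted p = 0.014), and for Aqp1 1.17 (SE 0.86, 95% confidence interval −0.68 to 3.02).

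Between the control groups of day 21 and day 7, limma called 0 of 21, against 0.05% of all probe sets, and 0 had an unadjusted p under 0.05, against 2.64% of all probe sets higher and 4.89% lower. None of the 21 separated these groups, against 2.27% of all probe sets higher and 3.42% lower. The differences of the 8 genes ran from −0.87 for Fech to 0.39 for Cpox, with confidence intervals as wide as −2.55 to 2.81 for Alas2.

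Ordered by group mean, fetal liver was highest for Slc4a1, Rhag, Tfrc, Urod, Cpox and Fech. It was separated from the next group for Slc4a1, Tfrc and Cpox, whereas for Rhag, Urod and Fech it overlapped the next, which was KO at day 21 for Rhag and KO at day 7 for Urod and Fech. Aqp1 was highest in KO at day 21 and then in fetal liver, and these overlapped. In 6 of the 8 genes both control groups stood lowest, the exceptions being Rhag, where KO at day 7 and control at day 21 were level at the floor, and Alas2, where KO at day 21 was lowest; in all of these the low groups overlapped.

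Within groups the 8 genes did not vary as 1 block. Over the deviations of the 17 arrays from their group means, the 28 pairs of genes had correlations of −0.42 to 0.71, with a median of 0.14. The pairs with Rhag, −0.3 to −0.01, rest on fetal liver and KO at day 21. In the other groups Rhag was at or next to the floor and hardly varied. Alas2 and Fech had the highest (0.71, with the high KO array of day 7 among the points), then Tfrc and Urod (0.65), and Aqp1 and Fech the lowest. Pairs of probe sets of the same gene ran from −0.31 to 0.88 with a median of 0.24, and most of these pairs were of Tfrc (−0.31 to 0.88). Slc4a1 pairs had 0.43 to 0.87 and the Urod pair 0.84. Leaving aside the Cpox set at or next to the floor and the Fech set that went the other way, Cpox had 0.4 and Fech 0.52 to 0.88. Pairs with those sets had −0.11 to 0.42. The median of 0.24 therefore sets no bound on the correlations between genes, which used 1 probe set per gene. All points share the arrays and their scaling.

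The named genes most like each member over the 17 arrays were sought among 9688 genes with a mean log2 intensity over 6. Cpox was most like Cldn13 (r = 0.942, and 0.859 for deviations from group means) and Rhag most like Wdcp (0.9 and 0.678). Slc4a1 was most like Mtfr1 (0.89 and 0.482) and then Pklr, the red cell pyruvate kinase (0.883 and 0.556). Urod was most like Cox17, a copper chaperone of the respiratory chain (0.879 and 0.909), Tfrc most like Acp1 (0.852 and 0.761), Aqp1 most like Blvrb, a biliverdin reductase of red cells (0.85 and 0.62), Fech most like Blvra, the other biliverdin reductase (0.843 and 0.739), and Alas2 most like Hbb-b2 (0.803 and 0.831). For Alas2 and Hbb-b2, KO replicate 1 of day 7, the highest array for both, is among the points. All these correlations are descriptions over arrays in 5 groups, picked as the highest of many.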

How the data were processed

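The authors deposited 1 intensity per probe set and array on a linear scale, with a floor of 16; RMA is the only tool in the submitters' processing notes, and the sources used here do not give its role, its version or the scaling. Per array, 20.4% to 25.2% of probe sets lay at the floor and the median intensity was 39.4 to 53.1. Arrays give no count depth, and their number limits the precision. Log2 of the deposited intensity was taken without pseudocount. After 51 control probe sets other than those for Tfrc and 5014 at the floor on all arrays were left out, 40036 were fitted with limma 3.58.1 in R 4.3.3 (1 mean per group over 17 arrays, residual df 12, prior df 1.41). A Benjamini-Hochberg adjusted p under 0.05 was a call. All adjusted p-values are limma's and cover all probe sets, and the fit was tested on simulated data. Adult control is the mean of both control groups. Names came from the platform annotation (34958 probe sets with 1 gene, 932 with several, 9160 with none), and 34754 matched RefSeq (GRCm38.p6). The probe set with the highest mean represents a gene. All member probe sets are named, and of each list up to 4 genes with the smallest p per direction; other genes were named with their values in view. A suffix _x_at or _s_at marks sets whose probes may match other transcripts. Members and lists were chosen with earlier results of these data known.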

Additional observations from a re-analysis of the deposited data

Results flagged for a closer look

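In groups of 4 arrays, the highest or lowest array was tested for a gap to the nearest of the others that is large for the range of the group, with Dixon's test. Of 41 such groups, over the member probe sets, 7 had an outlying array, where chance would give this in about 5% of independent groups. These groups share the same arrays and hold several probe sets of 1 gene, so the 7 cannot be weighed against that rate. KO replicate 2 of day 21 was low for the 5′ control set of Tfrc (332, with the others at 966 to 1157), for Urod 1417206_at (135, with the others at 467 to 526) and for Cpox 1422492_at (124, with the others at 533 to 610). KO replicate 1 of day 21 was low for Slc4a1 1431743_a_at (38.7) and, at 16.3, the one array above the floor for Cpox 1440747_at. Control replicate 4 of day 21 was high for Slc4a1 1434502_x_at (42.0), and control replicate 3 of that day was the one control array above the floor for Rhag (16.4). The values of 16.3 and 16.4 are next to the floor. All other arrays of those groups were at the floor, where any value above it is flagged. Groups of 3 arrays were not tested, so the Alas2 value of 4799 on KO replicate 1 of day 7 was not part of this count.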

How the results depend on the processing

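The 12 member probe sets called in fetal liver against adult control became 5 of 8 with 1 probe set per gene and 7 with only the groups compared, and 5 to 13 when single arrays were left out. With the 2 arrays that stood apart left out together (KO replicate 1 of day 7, control replicate 3 of day 21), a choice made after seeing the data, 13 were called. The KO array was the one high for Alas2. The control array had the most probe sets at the floor (25.2%), the lowest median (39.4) and the lowest log2 3′ to 5′ ratio (−0.4). That ratio, a mean over the Gapdh and beta-actin control sets, was −0.4 to 0.2 in control and 0.19 to 0.3 in KO at day 21. No alternative gave a call for a member in any other comparison. Deviations of same-numbered arrays of KO and control from their group means had correlations of −0.015 to 0.0798. The labels do not say what the numbers mean, and these few low correlations cannot decide whether such arrays were paired. With a replicate block 12 were called in fetal liver against adult control, and the call of Tfrc 1422967_a_at was lost (1.74, adjusted p = 0.059). Fech lost its call in 15 of 23 alternatives, Tfrc in 8 of 23 and Rhag in 3 of 22, and Aqp1 gained one in 4 of 23; the causes were not tested.

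Signs turned only for differences that were not called. For KO against control at day 7, Rhag turned to −0.05 with arrays centred on their medians and −0.01 with the 3′ to 5′ ratio as a covariate. With the share at the floor as a covariate, Alas2 turned to 0.44 at day 21. For control at day 21 against day 7, Tfrc turned to −0.11 with array weights, Rhag to −0.11 with the replicate block, Rhag to −0.43, Alas2 to −0.85 and Urod to 0.06 with the share at the floor, and Rhag to −0.28, Tfrc to −0.26 and Cpox to −0.03 with the 3′ to 5′ ratio. With both arrays left out, Alas2 turned to −0.27 at day 7 and −0.39 averaged over both days, and between the controls Aqp1 turned to −0.01 and Tfrc to −0.04. When single arrays were left out, differences at day 7 ranged from −0.15 to 0.64 for Tfrc and −0.27 to 3.0 for Alas2, and the mean over both days from −0.45 to 1.19 for Alas2. The difference between both KO effects ranged from −0.30 to 1.62 for Slc4a1, −0.20 to 0.59 for Tfrc and −0.27 to 0.84 for Fech. Between the controls the ranges were −1.46 to 0.07 for Slc4a1, −0.27 to 1.09 for Aqp1, −0.23 to 0.41 for Tfrc, −0.46 to 0.77 for Alas2 and −0.50 to 0.26 for Urod. Dim values near the floor limit Rhag, Slc4a1 in adult cells and Alas2, and the globin genes Hba-a1, Hba-x, Hbb-bh1 and Hbb-y.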
